A study of Mus musculus with 8 samples.

Results

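Aldehyde dehydrogenases oxidise reactive aldehydes to carboxylic acids with NAD+ or NADP+ as the cofactor. Each enzyme of the family is tied to a substrate or pathway, among them acetaldehyde, fatty aldehydes and the semialdehydes made when proline, GABA, valine and lysine are broken down. In the ovary they are known for clearing aldehydes and for making retinoic acid. The 10 genes described here were taken by name from the family: Aldh1b1, Aldh2, Aldh3a2, Aldh4a1, Aldh5a1, Aldh6a1, Aldh7a1, Aldh9a1, Aldh16a1 and Aldh18a1. They are 10 of the 37224 genes in the count table, and all 10 identifiers matched a mouse symbol. The list was drawn up with their knockout and control values already known, so the differences between the groups are given below as a description and are not tested as evidence.

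The libraries came from single mouse oocytes arrested in the second meiosis (MII oocytes), 4 from superovulated Setd1bGdf9cKO females (knockout) and 4 from superovulated control females. The product of Setd1b methylates histone H3 at lysine 4, and Gdf9, named in the allele, is a gene expressed by oocytes. The labels do not specify the control genotype further, nor strain and age, and whether a group's oocytes came from separate females is not given there. The p-values given below therefore measure the spread between these libraries, which may be technical in part.

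Promoter sequences were available in RefSeq (build GRCm38.p6) for 8 of the 10 genes. The 250 bases before the start site are printed for the 3 genes of highest level per kb of gene length. They were picked after their values were seen, because Aldh6a1 differed most between the groups among the 3 and the other 2 had overlapping groups. Capitals mark each CG. The windows are chr12:84451025-84451274 (minus strand) for Aldh6a1, chr1:167349741-167349990 (plus strand) for Aldh9a1 and chr19:40588464-40588713 (minus strand) for Aldh18a1.
Aldh6a1: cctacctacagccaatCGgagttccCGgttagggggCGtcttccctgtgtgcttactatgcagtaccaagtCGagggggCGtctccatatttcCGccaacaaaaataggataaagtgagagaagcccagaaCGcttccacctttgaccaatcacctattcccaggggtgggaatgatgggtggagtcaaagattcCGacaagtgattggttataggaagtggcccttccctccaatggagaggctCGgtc
Aldh9a1: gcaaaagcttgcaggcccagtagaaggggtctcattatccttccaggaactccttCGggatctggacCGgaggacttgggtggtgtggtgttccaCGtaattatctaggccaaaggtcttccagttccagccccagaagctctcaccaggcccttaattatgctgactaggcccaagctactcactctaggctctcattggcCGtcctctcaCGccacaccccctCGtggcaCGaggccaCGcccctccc
Aldh18a1: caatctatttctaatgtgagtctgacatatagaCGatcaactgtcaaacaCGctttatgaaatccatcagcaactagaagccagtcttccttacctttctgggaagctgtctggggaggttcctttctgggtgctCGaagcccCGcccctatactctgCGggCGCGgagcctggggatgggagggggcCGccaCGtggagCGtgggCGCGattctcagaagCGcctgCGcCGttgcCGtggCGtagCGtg
CG occurred 9 times in the Aldh6a1 window, 8 times in that of Aldh9a1 and 18 times in that of Aldh18a1, against a median of 6 over all 32851 promoters of the table. Aldh6a1 has another annotated start, whose window holds 2. The windows of Aldh3a2 and Aldh16a1 also hold 18, that of Aldh5a1 holds 17, that of Aldh4a1 holds 10 and that of Aldh1b1 holds 4. The letters TATAAA, searched on both strands, were in 0 of the 9 member windows and in 12.4% of all promoters. These counts describe the letters of a window and say nothing of a factor that binds there.

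Assigned counts ran from 9488899 to 11313502 per knockout library and from 11029602 to 13519404 per control library. Levels are counts scaled to a common library size, CPM, with totals corrected for composition by TMM factors of 1.07 to 1.22 in knockout and 0.800 to 0.947 in control libraries. Setd1b had 4.42, 5.05, 2.96 and 3.54 CPM in knockout libraries 1 to 4, against 10.7, 12.8, 9.22 and 10.9 CPM in control libraries 1 to 4. Every knockout library lay below every control library (log2 fold change -1.44 ± 0.41, SE; edgeR's quasi-likelihood adjusted p = 0.0221). The call was lost without knockout library 3 (adjusted p = 0.0519) or control library 2 (0.0540), and when only library totals were used for scaling (log2 fold change -1.04, adjusted p = 0.0887). All 10 oocyte markers, such as Zp3 and Gdf9, passed the abundance filter, and their sums were 9854 to 15889 CPM in knockout and 10996 to 13870 CPM in control libraries. The sums rest on a few abundant genes, and single markers differed: 5 of the 10 were called higher in the knockout (Zp1 1.54, Zp2 3.02, Zp3 1.71, Nlrp5 1.66 and Padi6 2.52, log2 fold changes) and Oosp1 was called lower (-1.43). The shares called among all tested genes were 13.6% higher and 12.2% lower. Of 13 cumulus and granulosa markers 3 passed, with sums of 110 to 184 CPM in knockout and 215 to 242 CPM in control libraries. Esr2 averaged 63.0 CPM in knockout and 109.7 CPM in control libraries and was called lower (log2 fold change -0.80). So was Cyp19a1, at 49.2 and 88.6 CPM (-0.85), while Kitl, at 21.4 and 28.3 CPM (-0.40), was not called. Amh, Inha, Foxl2, Tnfaip6 and Ptx3 had no count in any library. Of 9 matched markers of blood and stroma 2 passed, with sums of 26.8 to 51.3 CPM in knockout and 50.8 to 77.7 CPM in control libraries. Pecam1 averaged 33.7 CPM in knockout and 59.9 CPM in control libraries and was called lower (-0.83). Dcn, at 5.82 and 9.72 CPM (-0.74), was not called. Ptprc, Hba-a2, Col1a2, Col3a1 and Lum had no count. The part of these other cell types in the values below was not tested.

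Of the 10 genes, 9 had at least 1 count and 8 passed the abundance filter. In Aldh2, Aldh3a2, Aldh6a1 and Aldh7a1 every knockout library lay above every control library, and the same 4 were called higher at an adjusted p under 0.05. Over all 11066 tested genes, 13.6% were called higher, 12.2% were called lower and 17.7% had every knockout library above every control library. None of the 8 was called lower by edgeR's quasi-likelihood test, none had an unadjusted p under 0.05 in that direction and none was called lower by DESeq2. Aldh1b1 and Aldh16a1 were too low to test. The median log2 fold change of the 8 was 1.62, against 0.10 for all tested genes, and nothing is read from either figure because the genes were chosen on this contrast.

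**Figure D1:**
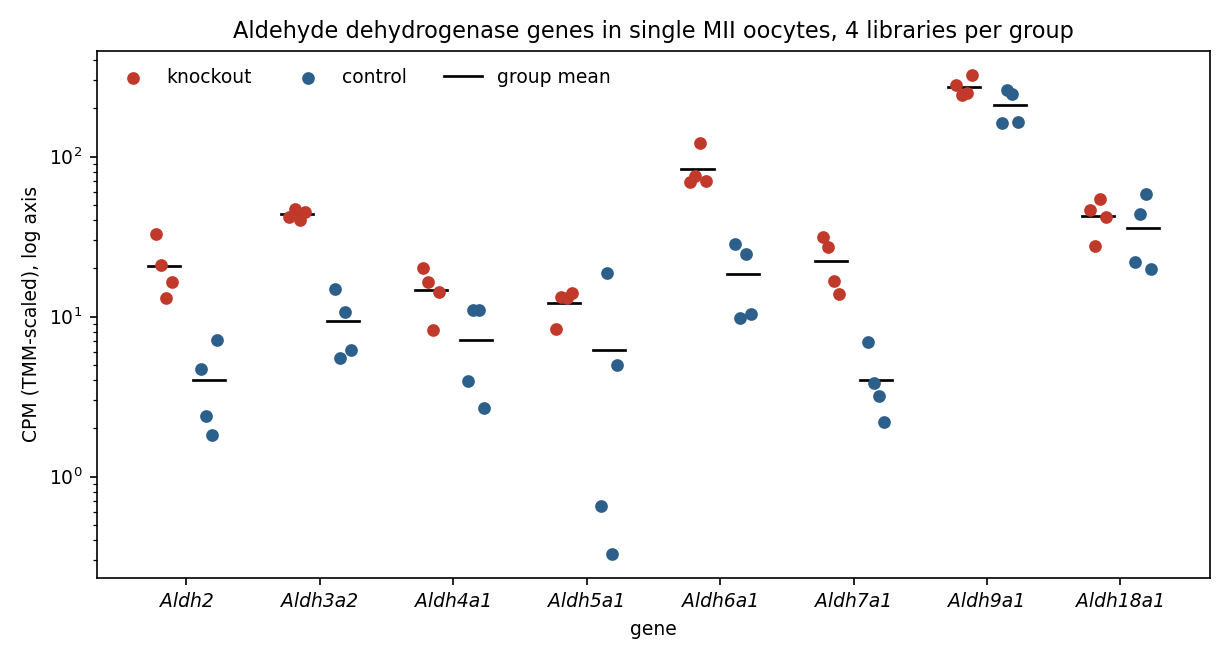
CPM of the 8 tested aldehyde dehydrogenase genes in each library (log axis), knockout in red and left of control in blue, with a bar at each group mean (4 libraries per group). The groups are apart in Aldh2, Aldh3a2, Aldh6a1 and Aldh7a1, and they overlap in Aldh4a1, Aldh5a1, Aldh9a1 and Aldh18a1.

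The mitochondrial enzyme gene Aldh2 (ENSMUSG00000029455, chromosome 5, 121566027 to 121593824, mm10), whose product oxidises acetaldehyde, had 32.9, 20.9, 13.0 and 16.5 CPM in knockout libraries 1 to 4, against 4.73, 2.39, 1.81 and 7.10 CPM in control libraries 1 to 4. The lowest knockout library was above the highest control library. Its log2 fold change was 2.38 ± 0.50 (SE, n = 4 per group), and the counts behind it were 1038 in knockout and 166 in control libraries. Its mitochondrial relative Aldh1b1 (ENSMUSG00000035561, chromosome 4, 45799022 to 45804604) had 0 counts in every library. That allows a level of up to 0.0711 CPM (unscaled totals) over the knockout libraries and 0.0601 CPM over the control libraries, where 3 counts set the limit and counting error alone is covered.

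Aldh3a2 (ENSMUSG00000010025, chromosome 11, 61223417 to 61267464) encodes the fatty aldehyde dehydrogenase of the endoplasmic reticulum. It had 42.1, 46.8, 39.9 and 45.0 CPM in knockout libraries, against 15.0, 5.51, 10.6 and 6.20 CPM in control libraries. The knockout libraries lay close together, with a coefficient of variation of 7.08%, against 47.1% in the control libraries. Over all tested genes the median coefficient of variation was 28.1% in knockout and 38.4% in control libraries. The log2 fold change of Aldh3a2 was 2.22 ± 0.34 (SE).

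Aldh6a1 (ENSMUSG00000021238, chromosome 12, 84430723 to 84450950) encodes methylmalonate semialdehyde dehydrogenase, which acts late in valine breakdown. Its levels were 69.1, 75.3, 122 and 70.2 CPM in knockout libraries, against 28.6, 9.74, 24.6 and 10.4 CPM in control libraries. Knockout library 3 stood above the other three, and the highest control library was well below all 4 knockout libraries. The log2 fold change was 2.20 ± 0.38 (SE). An exon of Bbof1 on the other strand covers 2.96% of its exon length, and the counting did not use strand.

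Aldh7a1 (ENSMUSG00000053644, chromosome 18, 56509687 to 56572951) encodes antiquitin, which oxidises the semialdehyde of lysine breakdown. It had 31.2, 27.4, 16.7 and 13.9 CPM in knockout libraries, against 6.93, 3.83, 3.21 and 2.20 CPM in control libraries. The groups did not overlap, and the log2 fold change was 2.46 ± 0.45 (SE). Phax, on the other strand, shares 5.79% of its exon length.

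The groups overlapped for both enzymes of proline. Aldh4a1 (ENSMUSG00000028737, chromosome 4, 139622866 to 139649690), which completes proline breakdown, had 20.0, 16.4, 8.26 and 14.2 CPM in knockout libraries, against 3.96, 10.94, 10.95 and 2.70 CPM in control libraries. Knockout library 3 lay below control libraries 2 and 3, and the log2 fold change was 1.04 ± 0.51 (SE). The annotated gene Gm21969 on the same strand covers 32.5% of its exon length, so its count is uncertain. Aldh18a1 (ENSMUSG00000025007, chromosome 19, 40550257 to 40588463) encodes the synthase at the start of proline synthesis. It had 46.3, 27.8, 54.3 and 41.8 CPM in knockout libraries, against 21.8, 43.6, 58.1 and 19.7 CPM in control libraries. The highest library of all was control library 3, and the log2 fold change was 0.25 ± 0.36 (SE), or -0.07 ± 0.33 with a gene length trend removed from each library, which also moved the median of all tested genes to -0.30. Relative to that median it was at 0.15, and at 0.23 with the trend removed.

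Aldh5a1 (ENSMUSG00000035936, chromosome 13, 24907579 to 24937661), the succinic semialdehyde dehydrogenase of GABA breakdown, varied most among the control libraries. It had 8.40, 13.2, 13.1 and 14.1 CPM in knockout libraries, against 0.66, 18.8, 0.33 and 4.997 CPM in control libraries. Control library 2 exceeded every knockout library, while 10 counts were reached in only 2 control libraries, against 4 knockout libraries. The coefficient of variation was 21.01% in knockout and 139.95% in control libraries. Its log2 fold change was 0.97 ± 0.91 (SE) with all libraries and 2.60 without control library 2, where it was called. The control libraries left there held 6, 4 and 50 counts. Aldh5a1 thus passed the abundance filter only with the knockout libraries, where it is then high, and that call is a description. Transcripts on the other strand cover 10.7% of its exon length.

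Aldh9a1 (ENSMUSG00000026687, chromosome 1, 167349991 to 167368530) encodes the enzyme that oxidises 4-trimethylaminobutyraldehyde in carnitine synthesis, and it was the most abundant of the 10 in each library. It had 279, 242, 248.7 and 324 CPM in knockout libraries, against 162, 260, 247 and 165 CPM in control libraries. Control libraries 2 and 3 lay within the range of the knockout libraries, and libraries 1 and 4 lay below it. The log2 fold change was 0.39 ± 0.20 (SE), and it was not called. Scaled by library totals alone it was 0.76 and called, and with the length trend removed it was -0.17, so the sign of the fold change depends on scaling. These scalings moved the median of all tested genes from 0.10 to 0.49 and to -0.30, and relative to that median Aldh9a1 was at 0.29, at 0.27 with totals alone and at 0.13 with the length trend removed. Aldh16a1 (ENSMUSG00000007833, chromosome 7, 45140684 to 45154584), a family member whose human protein lacks the catalytic cysteine, had 7, 4, 0 and 2 counts in knockout libraries and 0 counts in all 4 control libraries, where the limit is 0.0601 CPM. It was not tested.

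**Figure D2:**
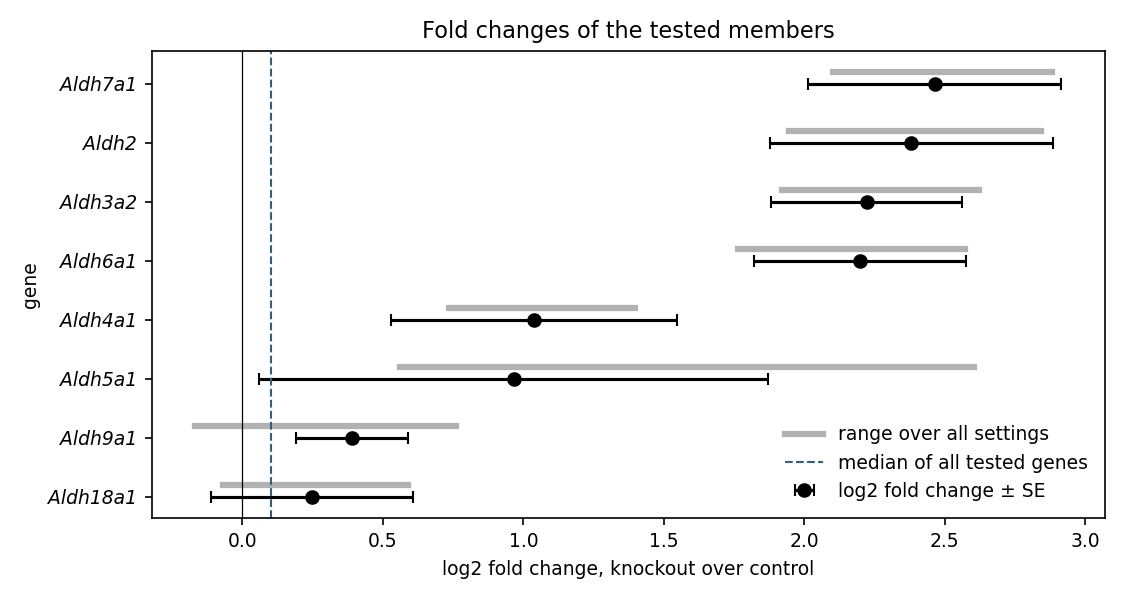
Log2 fold change of knockout over control for the 8 tested aldehyde dehydrogenase genes, with its SE (point and bar, n = 4 per group) and the range over all alternative settings (grey line). The dashed line is the median of all tested genes (0.10). Aldh7a1, Aldh2, Aldh3a2 and Aldh6a1 lie between 2.20 and 2.46, and the grey lines of Aldh9a1 and Aldh18a1 cross 0.

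Levels between genes were compared as CPM per kb of gene length. In knockout oocytes the order was Aldh9a1 (96.6 ± 13.3 CPM per kb, SD, n = 4), Aldh6a1 (25.2), Aldh18a1 (10.4), Aldh3a2 (7.73), Aldh2 (4.43), Aldh7a1 (4.30), Aldh4a1 (3.00), Aldh5a1 (2.16) and Aldh16a1 (0.046). Neighbours in that order did not overlap at the steps from Aldh9a1 to Aldh6a1, from Aldh6a1 to Aldh18a1, from Aldh3a2 to Aldh2 and from Aldh5a1 to Aldh16a1, and the others did. In control oocytes it was Aldh9a1 (73.7 ± 18.5 CPM per kb), Aldh18a1 (8.79), Aldh6a1 (5.49), Aldh3a2 (1.66), Aldh4a1 (1.45), Aldh5a1 (1.10), Aldh2 (0.852) and Aldh7a1 (0.780). There the steps after Aldh9a1 and Aldh6a1 were the clear ones, and the rest of the tested genes overlapped with their neighbours. Aldh6a1 stood above Aldh18a1 in knockout and below it in control oocytes, where the pair overlapped.

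As a share of the summed counts per kb of the 10 genes, Aldh9a1 made up 62.9, 61.6, 56.8 and 69.2% in knockout libraries, against 74.3, 81.1, 76.5 and 82.4% in control libraries. No knockout library reached the lowest control library. Aldh6a1 made up 16.4 ± 5.0% in knockout and 6.13 ± 3.67% in control libraries (SD, n = 4), and Aldh3a2 made up 5.05 ± 0.65% and 1.88 ± 1.10% in the same groups. Shares within a sum move against each other by construction. Without length scaling, Aldh9a1 made up 53.1% in knockout and 71.2% in control libraries. The 10 genes summed to 514 ± 31.0 CPM in knockout and 294 ± 72.9 CPM in control libraries, and without Aldh9a1 to 240 ± 22.8 CPM in knockout and 84.9 ± 24.0 CPM in control libraries.

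**Figure D3:**
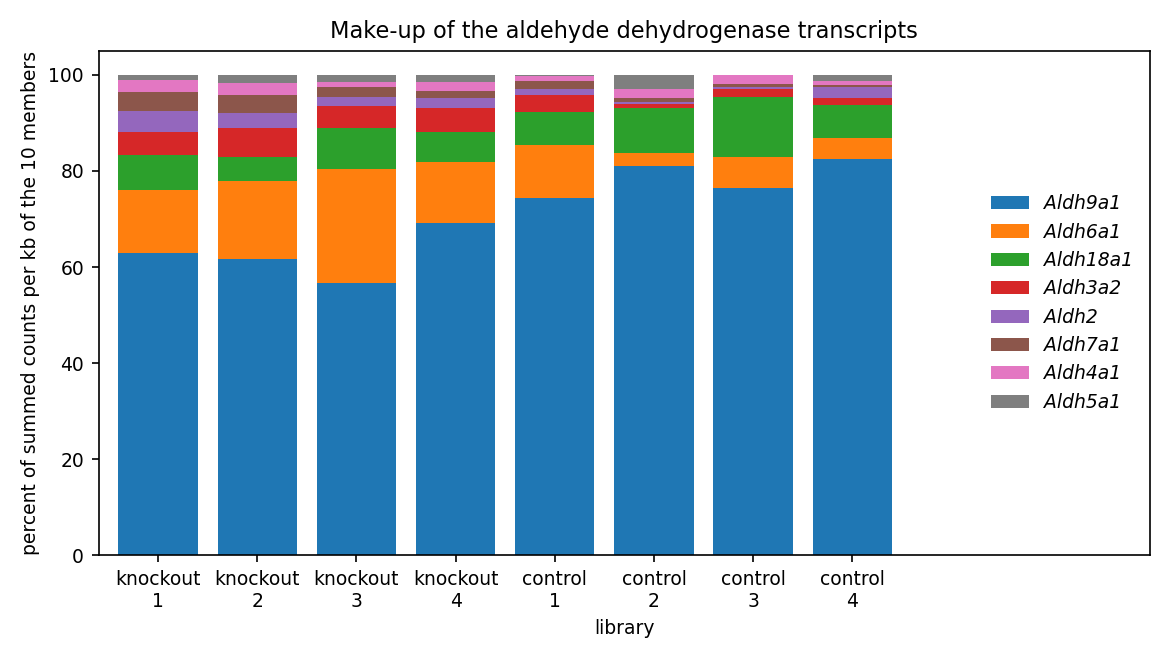
Share of each gene in the summed counts per kb of the 10 aldehyde dehydrogenase genes, one stacked bar per library, knockout libraries on the left and control libraries on the right (vertical axis in percent). Aldh9a1 takes 56.8 to 69.2% in knockout and 74.3 to 82.4% in control libraries, and the segment of Aldh6a1 is largest in knockout library 3. Aldh1b1 and Aldh16a1 are too low to be seen.

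Among 11 further Aldh genes, Aldh1a2 was the only one abundant enough to test. Aldh1a2, which makes retinoic acid, had 115, 87.1, 61.1 and 68.3 CPM in knockout libraries, against 31.5, 11.1, 19.1 and 7.795 CPM in control libraries. Every knockout library lay above every control library (log2 fold change 2.26 ± 0.40, SE; edgeR's quasi-likelihood adjusted p = 0.00218). Aldh1l1, which oxidises formyl tetrahydrofolate, had 22, 23, 19 and 5 counts in knockout libraries and 2, 3, 1 and 2 in control libraries. Aldh1a1 had counts of 13, 3, 18 and 0 in knockout libraries and 9, 28, 0 and 0 in control libraries, and its copy Aldh1a7 had 11 in knockout library 1 and 26 in control library 1. Aldh8a1 had 22, 0, 0 and 5 counts in knockout libraries and 40 in control library 3. Aldh3b1 had 25 in knockout library 2, Aldh3b2 had 4 in knockout library 1, Aldh1a3 had 2 in knockout library 4 and Aldh3a1 had 1 in control library 3. Aldh1l2 and Aldh3b3 had no count in any library. The authors' deposited table was made from the same 8 libraries and lists 2709 genes, with DESeq2 adjusted p-values of at most 0.009996. It holds Aldh2, Aldh3a2, Aldh6a1, Aldh7a1 and Aldh1a2, with shrunken log2 fold changes of 2.11, 2.08, 2.03, 2.24 and 2.07. That limit is stricter than the 0.05 used here, and the table is no separate evidence.

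The other genes of the pathways that these enzymes belong to were described by 9 lists. Of 72 tested genes in them, 10 rose and 6 fell in the knockout, beside the background shares of 13.6% and 12.2%. The median log2 fold change of the 72 was 0.33, against 0.10 for all tested genes, and the difference was not tested. The 6 that fell reached 10 counts in every library. Of the 10 that rose, Pycr1 reached them in 0 control libraries, Gad2, Akr1b8 and Fance in 2, and Far2 and Mcee in 3. Each reached them in 4 knockout libraries. These genes thus passed the abundance filter only with the group where they are high, and their calls are a description. In the proline list 1 of 5 tested genes rose and 1 fell. Pycr1, which makes proline from pyrroline-5-carboxylate, had 44, 23, 82 and 22 counts in knockout libraries and 3, 0, 0 and 0 in control libraries (log2 fold change 5.41 ± 1.27, adjusted p = 0.00942; 8.42 without control library 1). The summed counts, 171 in knockout and 3 in control, gave a ratio per library total of 67.4. Its 95% exact (Clopper-Pearson) counting interval was 22.7 to 330.1. That interval covers counting error alone and leaves out the spread between libraries, so the size of the ratio is uncertain. Oat, which links ornithine to proline, had 36.1, 18.9, 33.2 and 34.3 CPM in knockout libraries, against 48.7, 52.4, 53.4 and 47.4 CPM in control libraries (-0.72 ± 0.25, adjusted p = 0.0494). That call was lost without any 1 of the 8 libraries, with adjusted p-values of 0.0612 to 0.127, and when scaled by library totals alone (-0.33, adjusted p = 0.364).

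In the GABA list 1 of 4 tested genes rose and none fell by either tool, and none had an unadjusted p under 0.05 in that direction. Gad2, a glutamate decarboxylase, had 10.1, 7.53, 8.71 and 4.65 CPM in knockout libraries, against 2.20, 0.878, 0 and 0.4997 CPM in control libraries (log2 fold change 3.12 ± 0.92, adjusted p = 0.0274). The call was lost without knockout library 1, 2 or 3 or control library 2 or 4 (adjusted p = 0.0506 to 0.0752). Akr7a5 and Adhfe1 were at 3.57 and 0.80 and did not pass. Without control library 1, Akr7a5 passed at 7.54 (adjusted p = 0.00872), and scaled by library totals alone it passed at 4.02 (0.0404). Its control counts were 6, 0, 0 and 0, so without library 1 the controls held 0 counts and the size of 7.54 is undetermined. Akr7a5 reached 10 counts in 0 control and 4 knockout libraries. It thus passed the abundance filter only with the group where it is high, and these calls are a description.

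Branched-chain amino acid breakdown, the pathway of Aldh6a1, had 15 tested genes, of which 3 rose and 1 fell. Dld, the dihydrolipoamide dehydrogenase that several complexes share, had 353, 365, 360 and 372 CPM in knockout libraries, against 104, 104, 109 and 221 CPM in control libraries (log2 fold change 1.43 ± 0.25, adjusted p = 0.00176). The call of Dld was lost with the length trend removed (0.75, adjusted p = 0.0616). Dbt, the transacylase of the branched-chain complex, averaged 38.4 ± 5.72 CPM in knockout and 12.2 ± 5.19 CPM in control oocytes (1.65 ± 0.34, adjusted p = 0.00478). Acadsb, an acyl-CoA dehydrogenase, averaged 35.8 ± 6.37 CPM in knockout and 77.5 ± 29.2 CPM in control oocytes (-1.11 ± 0.28, adjusted p = 0.0138), and its call was lost when scaled by library totals alone (-0.70, adjusted p = 0.0718). Mcee, named after its values were seen, was the other gene that rose (1.89 ± 0.60, adjusted p = 0.0374), and its call was lost without any 1 of the 4 knockout libraries or control library 3 (0.0590 to 0.0891) and with the length trend removed (0.103). The list of lysine, choline and carnitine metabolism, to which Aldh7a1 and Aldh9a1 belong, had 6 tested genes, of which 0 rose and 0 fell by edgeR or DESeq2, and 0 had an unadjusted p under 0.05. Gcdh, Dhtkd1 and Aadat were at 1.21, 0.79 and -1.12.

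Among 7 tested genes of fatty aldehyde and ether lipid metabolism, 1 rose and 1 fell. Far1 and Far2 both encode fatty acyl-CoA reductases. Far1 averaged 116 ± 15.6 CPM in knockout and 195 ± 35.6 CPM in control oocytes (log2 fold change -0.74 ± 0.19, adjusted p = 0.0127). Far2 averaged 13.7 ± 9.28 CPM in knockout and 2.81 ± 2.01 CPM in control oocytes, with overlapping groups (2.28 ± 0.72, adjusted p = 0.0369). The call of Far2 was lost without knockout library 1 or 2 or control library 1, 2 or 4 (adjusted p = 0.0524 to 0.124) and with the length trend removed (0.0506), and that of Far1 when scaled by library totals alone (-0.34, adjusted p = 0.134). Agps was at -0.61 and did not pass, with an adjusted p of 0.0565; it passed without knockout library 3 (0.0481), with median-of-ratios factors (0.0481) and by DESeq2 (0.0206). Of 7 alcohol dehydrogenase and carbonyl reductase genes 1 rose and none fell by either tool, and none had an unadjusted p under 0.05 in that direction. Akr1b8, an aldo-keto reductase, had 7.72, 25.2, 23.2 and 8.09 CPM in knockout libraries, against 0.110, 0.479, 2.06 and 1.90 CPM in control libraries (3.80 ± 0.78, adjusted p = 0.00463). Esd and Akr1b3 were at 1.82 and 0.33 and did not pass; Akr1b3 was at -0.064 with the length trend removed, and was called at 0.72 when scaled by library totals alone (adjusted p = 0.0388).

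Glutathione and aldehyde defence genes were tested in 10 cases, of which 2 rose and 1 fell. Gpx1, a glutathione peroxidase, averaged 26.3 ± 9.24 CPM in knockout and 6.16 ± 4.66 CPM in control oocytes (log2 fold change 2.10 ± 0.51, adjusted p = 0.0114). Gclm, a subunit of the enzyme that starts glutathione synthesis, averaged 76.6 ± 34.8 CPM in knockout and 36.6 ± 14.2 CPM in control oocytes, with overlapping groups (1.07 ± 0.34, adjusted p = 0.0381). Nfe2l2, the transcription factor NRF2, averaged 21.9 ± 5.45 CPM in knockout and 41.4 ± 5.12 CPM in control oocytes (-0.92 ± 0.25, adjusted p = 0.0189). The call of Gclm was lost without knockout library 1, 2 or 4 or control library 2, 3 or 4 (adjusted p = 0.0602 to 0.135, with 0.71 without knockout library 4) and with the length trend removed (0.133), and that of Nfe2l2 without knockout library 1, 2 or 4 (0.0538 to 0.0632) and when scaled by library totals alone (-0.53).

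The Fanconi anaemia genes, which act on DNA crosslinks such as those aldehydes cause, had 9 tested members, of which 1 rose and 1 fell. Fance averaged 14.7 ± 6.93 CPM in knockout and 1.84 ± 1.31 CPM in control oocytes (log2 fold change 2.99 ± 0.63, adjusted p = 0.00524). Fancc averaged 32.5 ± 13.2 CPM in knockout and 90.7 ± 14.9 CPM in control oocytes (-1.48 ± 0.28, adjusted p = 0.00311). Fancl was at 2.29 and did not pass (adjusted p = 0.0621), but passed without control library 2 (0.0348), by DESeq2 (0.0210) and when scaled by library totals alone (0.0365). Its control counts were 17, 40, 3 and 6, so control library 2 was the highest control. Fancl passed the abundance filter only with the knockout libraries, where it is high, and these calls are a description. In the retinoid list, which holds the partners of Aldh1a2, 1 of 9 tested genes fell and none rose by either tool, and none had an unadjusted p under 0.05 in that direction. Crabp2, a retinoic acid carrier, had 54.6, 37.0, 58.1 and 56.6 CPM in knockout libraries, against 159, 162, 46.3 and 171 CPM in control libraries, so control library 3 lay within the knockout range (-1.38 ± 0.35, adjusted p = 0.0135). The call was lost without knockout library 2 (0.0513) and when scaled by library totals alone (0.0514). Rara and Rxra were at 2.13 and 1.55 and did not pass.

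**Figure D4:**
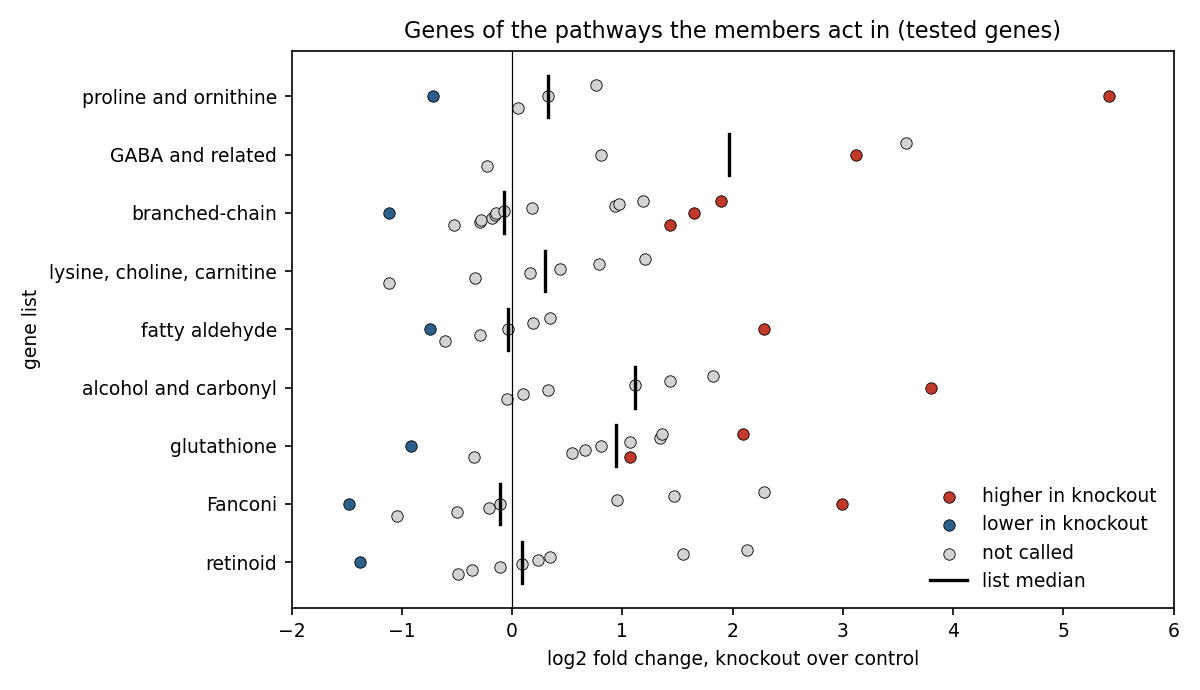
Log2 fold change of knockout over control for the 72 tested genes in 9 lists of partner genes, one point per gene and a vertical bar at each list's median. Red points are the 10 genes called higher and blue points the 6 called lower in the knockout (adjusted p under 0.05), and grey points were not called.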

How the data were processed

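RNA of 8 single MII oocytes was amplified with the SMARTer Ultra Low kit and sequenced as 75-bp single reads, per the labels' protocols. The kit carries no molecular identifiers and does not mark strand. GSNAP, featureCounts 1.4.4, DESeq2 1.3.79 and build mm10 are named by the submitters' processing notes. The deposited counts per gene were made by the authors with featureCounts from Ensembl 69 gene models, without a strand setting and at a mapping quality of 1 or more, per the file headers. The authors' deposited comparison table holds log2 fold changes, their standard error and test statistic (scores), p-values, RPKM values and a normalized signal. Of these only the fold changes and the largest adjusted p are quoted, and its coordinates were not used.

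All tests used the deposited counts, whose 8 columns were checked to hold whole numbers. The main test was edgeR 4.0.16 (R 4.3.3): a quasi-likelihood fit with genotype as its term, TMM scaling and filterByExpr. Benjamini-Hochberg adjustment ran over 11066 genes, and the threshold was 0.05. On simulated counts of these 11066 genes (4 against 4 libraries) the fit called 22 of 100 genes changed 2-fold, 59 of 100 changed 4-fold and 5 unchanged genes; far fewer genes changed there than were called here, so this is not the power in these data. Totals of 9488899 to 13519404 counts put the limit of 3 counts at 0.222 to 0.316 CPM. Libraries of 1 group correlated at 0.943 to 0.958 in knockout and 0.931 to 0.956 in control, and every pair differed by more than sampling noise (chi-square per degree of freedom of at least 32.4).

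The members, gene lists and tests were chosen with earlier results of these data known. Of 159 listed symbols, 2 matched no gene. The text names all members, every other Aldh gene, Setd1b and up to 3 tested genes of smallest p in each partner list. One gene that this rule picks is not reported here. Alternatives were median-of-ratios factors, library totals only, removal of a gene length trend, testing without a filter or with a minimum of 10 CPM in 4 libraries, DESeq2 1.42.0, the replicate number as a block and each library left out in turn. Promoter sequences came from RefSeq.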

Additional observations from a re-analysis of the deposited data

Results flagged for a closer look

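In 18 of 87 sets of 4 libraries (47 genes), 1 library stood far from the other three by Dixon's test. Chance flags about 1 of 20 sets of measured values, but that rate does not hold for sets of few counts, and the number of sets here is not read against it. Of these, 2 concern the 10 genes: Aldh5a1 was lowest in knockout library 1 (8.40 CPM, with the nearest at 13.1), and Aldh6a1 was highest in knockout library 3 (122 CPM, with the nearest at 75.3). In 9 sets the other 3 libraries were at 0, where any count in 1 library is set apart by construction. These were Aldh1a3 in knockout library 4 (0.186 CPM), Aldh1a7 in knockout library 1 (0.825) and control library 1 (2.86), Aldh3a1 in control library 3 (0.0824), Aldh3b1 in knockout library 2 (1.88), Aldh3b2 in knockout library 1 (0.300), Aldh8a1 in control library 3 (3.29), Pycr1 in control library 1 (0.330) and Akr7a5 in control library 1 (0.660).

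Among the remaining sets, Aldh1l1 was lowest in knockout library 4 (0.465 CPM), Oat in knockout library 2 (18.9) and Crabp2 in knockout library 2 (37.0) and in control library 3 (46.3). Dld was highest in control library 4 (221 CPM), and Nfe2l2 and Fancl were highest in knockout library 3 (30.1 and 15.9 CPM).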

How the results depend on the processing

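The 4 calls of Aldh2, Aldh3a2, Aldh6a1 and Aldh7a1 held under every alternative run, and 4 to 5 of the 10 genes were called higher and 0 lower. The minimum of 10 CPM in 4 libraries is no separate check of these calls. Control libraries reached at most 7.10 CPM for Aldh2 and 6.93 CPM for Aldh7a1, and control library 2 held 5.51 CPM of Aldh3a2 and 9.74 CPM of Aldh6a1. The 4 genes thus passed that minimum only with the knockout libraries, where they are high. Aldh5a1 was at 2.60 without control library 2, and left-out libraries gave it 0.56 to 2.60. Its call without control library 2 is no separate check either, since it passed the filter there only with the knockout libraries. Aldh9a1 was at 0.76 with library totals only, and with the length trend removed Aldh9a1, Aldh18a1 and Akr1b3 turned to -0.17, -0.068 and -0.064, beside a median of all genes of -0.30 (0.49 with totals only).

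With library totals only, 2377 genes were higher and 510 lower, Setd1b was at -1.04, the lists called 2 GABA, 2 fatty aldehyde, 2 carbonyl, 5 glutathione and 3 Fanconi genes higher, and 0 proline, branched-chain, fatty aldehyde, glutathione or retinoid genes lower. With the length trend removed, 922 genes were higher and 2591 lower, with 1 branched-chain, 0 fatty aldehyde and 1 glutathione gene higher, and 2 genes lower in each of the branched-chain, fatty aldehyde, glutathione, Fanconi and retinoid lists. The cause was not tested.

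The replicate number as a block left 861 genes lower, put Setd1b at -1.46 (adjusted p = 0.0700), and called 0 proline, glutathione and retinoid genes lower, and 0 fatty aldehyde and 1 glutathione gene higher. Same-numbered libraries of the groups correlated at -0.159 to -0.031 in their deviations from group means, and others at -0.116 to 0.148. These values show no pairing by number. With 4 libraries per group they cannot tell a weak pairing from none. DESeq2 called 2 fatty aldehyde genes lower and 2 Fanconi genes higher, median-of-ratios factors 2 fatty aldehyde genes lower, and no filter 0 proline and 2 retinoid genes lower. At least 10 CPM in 4 libraries left 0 called proline genes in either direction and 0 GABA, carbonyl and Fanconi genes higher. Pycr1, Gad2, Akr1b8, Fance and Far2 were not tested there, and Oat was tested but did not pass (-0.59, adjusted p = 0.0859). Oat was also lost with no filter (0.0714), and under the replicate block Oat, Far2, Nfe2l2, Gclm, Crabp2 and Mcee lost their calls (adjusted p = 0.0508 to 0.128).

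With 1 library left out, 1012 to 1597 genes were higher and 837 to 1244 lower (837 without knockout library 2), and Setd1b was at -1.57 to -1.33. The lists gave 0 proline genes lower, 0 to 2 GABA, 0 to 1 fatty aldehyde, 1 to 2 carbonyl, 1 to 3 glutathione and 1 to 2 Fanconi genes higher, and 1 to 2 fatty aldehyde, 0 to 1 glutathione and 0 to 1 retinoid genes lower. Without length scaling, the shares in knockout libraries were 8.49% for Aldh3a2, 2.87% for Aldh4a1, 2.38% for Aldh5a1, 4.38% for Aldh7a1 and 53.1% for Aldh9a1, and in control libraries 3.37% for Aldh3a2, 2.25% for Aldh4a1, 1.46% for Aldh7a1, 71.2% for Aldh9a1 and 11.6% for Aldh18a1. Fewer than 10 counts in at least 1 library limit, among others, Aldh1b1, Aldh16a1 and the control values of Aldh5a1 and Pycr1. The same limit holds for the control values of Gad2, Akr7a5, Akr1b8, Fance, Fancl, Far2, Mcee, Esd and Rara.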
